A study of Mus musculus with 12 samples.

Results

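Stathmins and a set of axon growth proteins were followed across mouse spinal cord and the ribosome-bound RNA of its neurons. The set holds 8 genes: the 4 stathmin genes Stmn1, Stmn2, Stmn3 and Stmn4, the growth-associated genes Gap43 and Basp1, the protein kinase C substrate gene Marcks, and Nrn1, which encodes neuritin. They were taken by gene symbol from a table of 40912 gene IDs. All 8 were among the 15905 genes that passed the filter on low counts. The genes were chosen by symbol with results of these same libraries known. Stmn2 had been selected on its fold change from input to pulldown in the Chat strain, so that value is given below as a description with no test, and none of the other p-values is offered as independent support for the choice of genes.

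The study used translating ribosome affinity purification (TRAP), in which a ribosomal protein carrying a green fluorescent tag is made in chosen cells and the tagged ribosomes are pulled down with the messenger RNA they hold. Spinal cords came from mice at postnatal day 21 of the strains Tg(Chat-EGFP/Rpl10a)DW167Htz and Tg(Snap25-EGFP/Rpl10a)JD362Jdd. Both strains carry an EGFP/Rpl10a transgene on a bacterial artificial chromosome, named for Chat, the acetylcholine-making enzyme of motor neurons and other cholinergic cells, or for Snap25, a synaptic protein of neurons in general. Each strain gave 3 libraries of RNA set aside before the 4-hour immunopurification (input) and 3 of RNA after it (pulldown), 12 in all. Nothing in the labels ties a replicate to its own mouse or tells whether cords were pooled, so p-values measure the spread between these libraries, which may be partly technical. No library of mice without a transgene was analysed here, so RNA that sticks to the beads was not measured.

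Stathmins bind tubulin dimers, hold them away from microtubule ends and promote the shrinking of microtubules, and phosphorylation by several kinases switches them off. Stmn1 is cytosolic, whereas the proteins of Stmn2 (SCG10), Stmn3 (SCLIP) and Stmn4 are palmitoylated, sit on Golgi-derived membranes and are carried into axons. Gap43, Basp1 and Marcks are unrelated in sequence but all lie on the inner face of the plasma membrane, bind calmodulin and phosphoinositides, are substrates of protein kinase C and act on the actin beneath the membrane. In motor neurons Stmn2 and Gap43 are known from growing and regenerating axons, and in humans the STMN2 messenger RNA is known to be misprocessed when motor neurons lose nuclear TARDBP.

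Gene counts summed to 10149346 to 20521699 per library, the inputs holding more than the pulldowns. In the Chat pulldown the Chat transcript stood at 106, 185 and 187 CPM (counts-per-million, with library sizes scaled for composition) against 16.1 to 30.2 in its input and 20.0 to 28.9 in the Snap25 pulldown. Snap25 itself stood at 14970 to 16520 CPM in the Snap25 pulldown against 8800 to 10560 in its input. This rise missed the threshold of 0.05 (log2 0.73, edgeR adjusted p = 0.0544). In the Chat input Snap25 was lower, at 5898 to 6896 CPM. Rpl10a, the gene of the tagged protein, was lower than input in the Chat pulldown (log2 -1.225, edgeR adjusted p = 0.0475). In the Snap25 pulldown its value was -0.15 (edgeR adjusted p = 0.838). The summed level of 9 cholinergic motor neuron markers was 802% to 1175% of its own input in the Chat pulldown and 228% to 348% in the Snap25 pulldown. The summed level of 10 oligodendrocyte markers was 11.6% to 35.6% and 13.2% to 31.4%, that of 8 oligodendrocyte precursor markers was 10.7% to 34.9% and 13.4% to 31.6%, and that of 7 inhibitory neuron markers was 15.9% to 38.9% and 138% to 198%. Gene by gene, 0 of the 7 inhibitory markers were called higher and 1 lower in the Snap25 pulldown (edgeR, adjusted p under 0.05), beside 9.69% and 12.7% of all genes. Their median log2 value there was 0.25. None of the oligodendrocyte, precursor, cholinergic or inhibitory markers was at 0 in any library. Chat pulldown replicate 1 stood apart: its mitochondrial ribosomal RNA was 26.7% of the input level against 1.21% and 1.43% in the other two, and it had the highest oligodendrocyte level and the lowest Chat level of the 3. Results of the 8 genes below are therefore also given without it where its absence moved a call. Genes and counts of the further lists were not looked at without it. In RNA from whole cord, fewer cells of a type and less RNA per cell cannot be told apart.

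The 4 stathmin messages are related, so the stretches where they are most alike are shown first, because counts can pass between genes only where a read fits both. Coding sequences of the reference annotation, GENCODE M21, were 447 bases long for Stmn1, 537 for Stmn2, 540 for Stmn3 and 648 for Stmn4. Pairs were identical at 69.4% to 73.7% of aligned bases. The longest identical run of any pair was 43 bases, between Stmn1 (coding bases 262 to 304) and Stmn2 (coding bases 364 to 406). Capitals mark that run within its flanks:
Stmn1: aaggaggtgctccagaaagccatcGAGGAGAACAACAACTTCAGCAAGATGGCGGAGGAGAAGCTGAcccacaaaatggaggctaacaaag
Stmn2: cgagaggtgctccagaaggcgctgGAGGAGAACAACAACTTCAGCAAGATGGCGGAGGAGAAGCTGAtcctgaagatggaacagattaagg
Stmn2 and Stmn3, the stathmins with the most counts, shared a run of at most 21 bases, at coding bases 295 to 315 of Stmn2 and 298 to 318 of Stmn3, again in capitals:
Stmn2: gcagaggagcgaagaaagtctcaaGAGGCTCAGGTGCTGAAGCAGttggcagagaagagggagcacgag
Stmn3: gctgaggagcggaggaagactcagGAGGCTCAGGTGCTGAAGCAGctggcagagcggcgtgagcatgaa
Read length was not given in the sources used here. Stmn1 also has a near-identical processed pseudogene, Gm11223, that matched it over 450 bases at 99.8% identity and had 110 counts over the 12 libraries. The counts of Stmn1 are therefore uncertain and may leave out reads that fit both genes. Exons of Nrn1 overlap those of Fars2, a mitochondrial aminoacyl-tRNA synthetase gene on the opposite strand with 2098 counts over the 12 libraries. Whether counting used strand was not given in the sources used here, so reads from that overlap cannot be assigned to Nrn1 or Fars2 with certainty.

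Within the whole cord the 8 genes spanned a wide range. Levels of different genes were compared per kilobase of annotated exon. In the Chat input Stmn3 stood at 370.8 CPM per kb, 55th of 15849 genes with a length, and Stmn1 at 4.63 CPM per kb, 6044th. The order between them was Gap43 at 101.6, Stmn4 at 95.9, Stmn2 at 79.1, Basp1 at 69.7, Nrn1 at 43.8 and Marcks at 17.0 CPM per kb. The Snap25 input gave the same ends, with Stmn3 at 345.7 and Stmn1 at 6.21 CPM per kb. The low end rests on the counts of Stmn1, which its pseudogene makes uncertain. The exons of Stmn2 add up to 5.602 kb when those of all its annotated transcripts are joined. Over its longest coding transcript, 2.07 kb, Stmn2 would stand at 213.7 CPM per kb in the Chat input and so second among the 8, a length chosen after the first was seen to be inflated. By exon length, neighbours in this order from Gap43 down to Basp1 overlapped between the Chat input libraries, whereas Stmn3 lay clear above Gap43, and Nrn1, Marcks and Stmn1 lay clear below Basp1 and of each other.

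None of the 8 genes was called between the inputs of the strains. The edgeR quasi-likelihood test called 0 of 8, beside 0% of all 15905 genes, and all adjusted p were 1. At an unadjusted p under 0.05 it listed 134 genes, 0.843% of those tested and none of the 8. DESeq2 called 1 gene of all those tested between the inputs and limma voom 0. The log2 differences, Chat input over Snap25 input, ran from -0.42 for Stmn1 to 0.10 for Stmn3. Stmn1 was the 1 gene of 8 whose input libraries did not overlap, lower in the Chat strain, beside 8.04% of all genes, 4.19% higher and 3.85% lower.

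**Figure D1:**
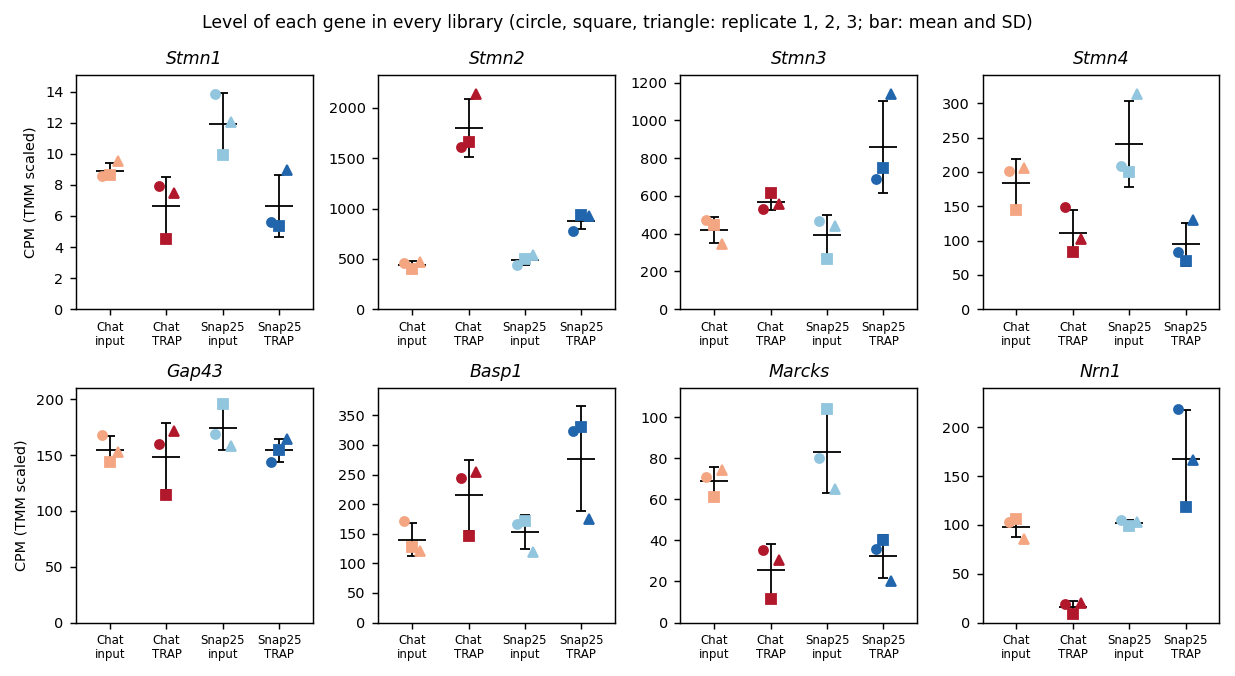
Level of each of the 8 genes in every library, in CPM scaled for composition (vertical axes, each from 0), in the 4 groups of strain and fraction. Symbols are replicates 1 to 3, the long bar is the mean and the error bar the SD of 3 libraries. Stmn2 in the Chat pulldown lies between 1607 and 2134 CPM, above all other groups, and Nrn1 there lies between 8.61 and 20.4 CPM, below all other groups.

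Stmn2 was the stathmin that went furthest up in the Chat pulldown. Its level was 1607, 1664 and 2134 CPM in the 3 Chat pulldown libraries against 456, 403 and 470 CPM in the Chat input. In the Snap25 pulldown it was 779, 934 and 930 CPM against 443, 495 and 540 CPM in the Snap25 input. The 4 groups thus fell into 3 levels that did not overlap, with both inputs lowest, the Snap25 pulldown between and the Chat pulldown highest. In the fit over all genes the Chat pulldown stood 4.07-fold above its input (log2 2.02 ± 0.23 SE), a value higher than that of 97.1% of tested genes. The Snap25 pulldown stood 1.79-fold above its input (log2 0.84 ± 0.22, edgeR adjusted p = 0.0121), a call that was lost without Snap25 input replicate 1 (0.77, adjusted p = 0.0529).

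Between the pulldowns Stmn2 was 2.05-fold higher in the Chat strain (log2 1.03 ± 0.22 SE, edgeR adjusted p = 0.00928). With only the 6 pulldown libraries in the fit the difference was 1.01 and missed the threshold (adjusted p = 0.0592). The difference between the strains in the change from input to pulldown was 1.18 ± 0.31 on the log2 scale and missed it too (edgeR adjusted p = 0.0771). DESeq2 and limma voom gave 1.199 and 1.177 for that difference and called it (adjusted p = 0.00313 and 0.0326). These comparisons share the Chat pulldown libraries in which Stmn2 had first stood out.

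Stmn3, also a membrane-bound neuronal stathmin, was highest in the other pulldown. It stood at 691, 746 and 1140 CPM in the Snap25 pulldown against 470, 268 and 441 CPM in the Snap25 input. In the Chat pulldown it stood at 529, 616 and 560 CPM against 472, 449 and 343 CPM in the Chat input. Pulldown libraries lay above input libraries without overlap in both strains, and the 3 Snap25 pulldown libraries all lay above the 3 Chat pulldown libraries. Stmn3 rose 2.19-fold in the Snap25 pulldown (log2 1.13 ± 0.27 SE, edgeR adjusted p = 0.00711), and without Snap25 pulldown replicate 3, its highest library, by 0.87 on the log2 scale (adjusted p = 0.0187). The Chat pulldown differed from its input by log2 0.43 ± 0.26 (95% interval -0.13 to 0.99, edgeR adjusted p = 0.241). The pulldowns differed by -0.60 ± 0.26, Chat over Snap25, and the test over all genes did not call it (edgeR adjusted p = 0.198).

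Stmn4, the third membrane-bound stathmin, went the opposite way from Stmn2 and Stmn3. Its level was 83.8, 70.8 and 130 CPM in the Snap25 pulldown against 209, 200 and 313 CPM in the Snap25 input, with no overlap. In the Chat pulldown it was 148, 83.4 and 102 CPM against 202, 144 and 205 CPM in the Chat input, where Chat pulldown replicate 1 lay above input replicate 2. Stmn4 fell 2.54-fold in the Snap25 pulldown (log2 -1.34 ± 0.29 SE, edgeR adjusted p = 0.00444). The Chat pulldown gave -0.73 ± 0.29 (edgeR adjusted p = 0.0718), and -0.99 without replicate 1 (adjusted p = 0.031). With input and pulldown of the same number taken as a block it gave -0.75 (edgeR adjusted p = 0.0161), though no label says that the numbers pair libraries. The value passed in 5 of 15 alternatives. The pulldowns themselves differed by 0.23 ± 0.29, Chat over Snap25, a sign that turned to -0.03 without Chat pulldown replicate 1.

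Few counts were assigned to Stmn1 in all groups, 60 to 252 per library, and its near-identical pseudogene leaves its true level uncertain. It stood at 8.54, 8.63 and 9.51 CPM in the Chat input, 7.90, 4.53 and 7.49 in the Chat pulldown, 13.8, 9.90 and 12.1 in the Snap25 input and 5.58, 5.35 and 8.94 in the Snap25 pulldown. On this scale pulldown libraries lay below their inputs in both strains. In CPM over total counts they overlapped: Chat pulldown replicate 1 at 8.90 lay above Chat input replicate 1 at 7.23. Likewise Snap25 pulldown replicate 3 at 8.67 lay above Snap25 input replicate 2 at 8.48. The log2 values were -0.42 ± 0.35 SE in the Chat strain and -0.85 ± 0.35 in the Snap25 strain, and neither passed the threshold (edgeR adjusted p = 0.399 and 0.0922). Without Snap25 pulldown replicate 3 the Snap25 value was -1.12 and passed (adjusted p = 0.0372).

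Mean levels of Stmn4 and Stmn1 were lower in both pulldowns than in their inputs. Only the fall of Stmn4 in the Snap25 strain was called. Markers of oligodendrocytes were lower in both pulldowns. The genes whose log2 CPM followed Stmn4 most closely over the 12 libraries were Cyp51, an enzyme of sterol synthesis (Pearson r = 0.98), Cldn11, a tight junction protein of myelin (r = 0.97), and Nmral1 (r = 0.97). For Stmn1 they were Agpat4 (r = 0.93), Lgr6 (r = 0.93) and Pvrl1 (r = 0.90), and Stmn1 and Stmn4 followed each other with r = 0.89. These values describe 12 libraries that fall into 4 groups, and they carry no test. All 10 oligodendrocyte markers fell in both pulldowns, with median log2 values of -2.46 in the Chat strain and -2.66 in the Snap25 strain. Within the pulldown groups their summed level was highest in Chat pulldown replicate 1 and Snap25 pulldown replicate 3. Stmn4 and Stmn1 were highest in the same libraries. So were the summed levels of oligodendrocyte precursor, astrocyte and microglia markers, and the match was not particular to oligodendrocytes. The 10 microglia markers had median log2 values of -2.487 in the Chat strain and -3.075 in the Snap25 strain. The summed level of 10 astrocyte markers was also below input, at 24.5% to 50.3% of input in the Chat pulldown and 49.0% to 68.6% in the Snap25 pulldown. By median log2 value the astrocyte markers stood at -2.275 and -2.606, close to the oligodendrocyte markers. The part of RNA from any of these cells in the values of Stmn4 and Stmn1 was not tested.

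Ratios within a library are free of scaling between libraries and show how the mix of stathmins differed. Stmn2 counts divided by Stmn3 counts gave 3.04, 2.70 and 3.81 in the Chat pulldown and 1.13, 1.25 and 0.815 in the Snap25 pulldown. In the inputs the ratio was 0.899 to 1.85. The Chat pulldown lay above all 9 other libraries, and the Snap25 pulldown overlapped the inputs. Stmn2 was selected on its rise in the Chat pulldown, so its high ratio there is a description only. Stmn3 counts divided by Stmn4 counts were 3.57, 7.38 and 5.49 in the Chat pulldown and 8.25, 10.5 and 8.75 in the Snap25 pulldown against 1.34 to 3.11 in the inputs.

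Per kilobase of exon, Stmn3 made up 77.8% ± 2.58 (SD, n = 3) of the summed level of the 4 stathmins in the Snap25 pulldown and 56.7% ± 4.21 in the Chat pulldown. Stmn2 made up 16.7% ± 3.06 and 36.3% ± 4.03. Stmn4 fell from 17.6% ± 3.87 and 22.3% ± 3.84 of the sum in the Chat and Snap25 inputs to 6.64% ± 2.32 and 5.09% ± 0.699 in the pulldowns. Stmn1, with its uncertain counts, was never above 1.19%. With the longest coding transcripts as lengths, Stmn2 made up 59.4% ± 4.13 in the Chat pulldown and 34.4% ± 5.08 in the Snap25 pulldown, and Stmn3 34.5% ± 3.86 and 59.6% ± 4.31. Which of Stmn2 and Stmn3 leads in the Chat pulldown thus depended on the length used, whereas Stmn3 led in the Snap25 pulldown by either length. Both lengths gave Stmn2 a larger share in each Chat pulldown library than in any other library. That too is a description only, since Stmn2 was selected on its rise there.

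**Figure D2:**
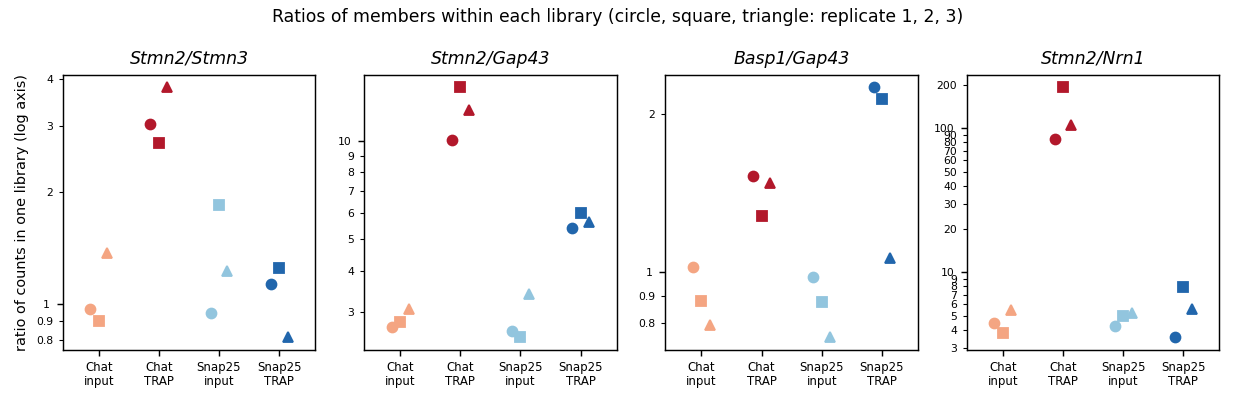
Ratio of the counts of 2 genes within each library (vertical axes, logarithmic) for Stmn2 over Stmn3, Stmn2 over Gap43, Basp1 over Gap43 and Stmn2 over Nrn1, in the 4 groups of strain and fraction. Symbols are replicates 1 to 3. The Chat pulldown lies apart in Stmn2 over Stmn3 (2.70 to 3.81), Stmn2 over Gap43 (10.03 to 14.6) and Stmn2 over Nrn1 (83.9 to 193). Stmn2 was selected on its rise in those libraries, so these ratios are descriptions only.

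Gap43, a growth cone protein that binds calmodulin until protein kinase C phosphorylates it, did not pass the threshold in any comparison. Its level was 168, 144 and 153 CPM in the Chat input and 160, 114 and 172 CPM in the Chat pulldown. In the Snap25 strain it was 169, 196 and 158 CPM in the input and 144, 155 and 164 CPM in the pulldown. The libraries of all 4 groups overlapped. The log2 value was -0.06 ± 0.21 SE in the Chat strain (95% interval -0.51 to 0.39, edgeR adjusted p = 0.866) and -0.18 ± 0.21 in the Snap25 strain (-0.63 to 0.27, edgeR adjusted p = 0.593). Scaling by total counts alone turned both to 0.20 and moved the median of all genes from -0.06 to 0.17 in the Chat strain and from -0.00 to 0.38 in the Snap25 strain.

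Basp1 (CAP-23), a myristoylated protein with actions on membrane-bound actin like those of Gap43, was higher in the Snap25 pulldown, though not under all settings. It stood at 324, 331 and 175 CPM in the Snap25 pulldown against 166, 172 and 119 CPM in the Snap25 input. In the Chat pulldown it stood at 245, 146 and 254 CPM against 172, 127 and 121 CPM in the Chat input, with overlap. Basp1 rose 1.82-fold in the Snap25 pulldown (log2 0.86 ± 0.29 SE, edgeR adjusted p = 0.04). The call was lost with only the 6 Snap25 libraries in the fit (adjusted p = 0.0719) and on leaving out any of the 3 input libraries or pulldown replicate 1 or 2 (adjusted p of 0.0706 to 0.133). The Chat pulldown gave 0.62 ± 0.29 (edgeR adjusted p = 0.12), and 0.88 without replicate 2 (adjusted p = 0.0424). The counts of Basp1 over those of Gap43 were 1.28 to 1.53 in the Chat pulldown and 1.07 to 2.26 in the Snap25 pulldown against 0.753 to 1.02 in the inputs, so that every pulldown library lay above every input library.

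Stmn3 and Basp1 are the pair called higher in the Snap25 pulldown and not called in the Chat pulldown, although the difference between the strains in that change was itself not called for Stmn3 (log2 -0.70 ± 0.37 SE, edgeR adjusted p = 0.513) or Basp1 (-0.24 ± 0.40, edgeR adjusted p = 0.893). Upstream sequence was found only for these genes of the set, so its availability and not this pattern of calls chose the pair. Their 250 bases before the transcription start are shown as RefSeq gives them for build GRCm38.p6. They are written 5′ to 3′ on the strand of the gene. The window of Stmn3 is chr2:181314501-181314750 on the minus strand and that of Basp1 chr15:25413765-25414014 on the minus strand. Capitals mark the GC box letters GGGCGG:
Stmn3: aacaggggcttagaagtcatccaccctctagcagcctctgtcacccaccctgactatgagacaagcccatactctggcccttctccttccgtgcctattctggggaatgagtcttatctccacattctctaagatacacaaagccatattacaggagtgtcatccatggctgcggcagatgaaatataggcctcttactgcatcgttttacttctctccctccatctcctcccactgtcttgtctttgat
Basp1: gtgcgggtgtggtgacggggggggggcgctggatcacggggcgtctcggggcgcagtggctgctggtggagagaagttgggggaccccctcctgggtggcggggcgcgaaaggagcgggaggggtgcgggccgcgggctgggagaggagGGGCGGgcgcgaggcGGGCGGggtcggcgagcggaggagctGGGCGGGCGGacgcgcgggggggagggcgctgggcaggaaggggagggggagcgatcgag
The 2 windows have little in common in composition. The Basp1 window had a G and C content of 78.8%, above that of 98.3% of 32851 windows of this kind, and the Stmn3 window 48.8%, above that of 36.6%. Both strands were searched for the GC box letters above. They occurred 4 times in the Basp1 window, 2 of the matches overlapping, and 0 times in that of Stmn3, and 32.7% of all windows held them. The E box letters CANNTG occurred 1 time in the Stmn3 window and 0 times in that of Basp1, and 66.2% of all windows held them. The TATA box letters TATAAA, held by 12.4% of windows, and the CCAAT box letters, held by 33.9%, were in neither window. A match of letters is a description of the window and no evidence of binding.

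Marcks, an actin- and calmodulin-binding substrate of protein kinase C found in glia and other cells as well as neurons, fell in both pulldowns. Its level was 35.5, 11.6 and 30.2 CPM in the Chat pulldown against 71.0, 61.1 and 74.5 CPM in the Chat input. In the Snap25 pulldown it was 36.0, 40.2 and 20.4 CPM against 80.1, 104 and 64.8 CPM in the Snap25 input. No pulldown library reached its input. The fall was 2.67-fold in the Chat strain (log2 -1.41 ± 0.35 SE, edgeR adjusted p = 0.00779) and 2.57-fold in the Snap25 strain (-1.36 ± 0.35, edgeR adjusted p = 0.0114). The Snap25 call was lost without Snap25 input replicate 2 (-1.17, adjusted p = 0.0559) and with total counts alone (-0.94, adjusted p = 0.0826), and the pulldowns differed by -0.32 ± 0.35, Chat over Snap25 (edgeR adjusted p = 0.654). The oligodendrocyte and astrocyte markers were also lower in both pulldowns. The summed level of the 10 astrocyte markers was 24.5% to 50.3% of input in the Chat strain and 49.0% to 68.6% in the Snap25 strain. Median log2 values were -2.275 and -2.606 for the astrocyte markers and -2.455 and -2.659 for the oligodendrocyte markers. The part of RNA from these cells in the value of Marcks was not tested.

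**Figure D3:**
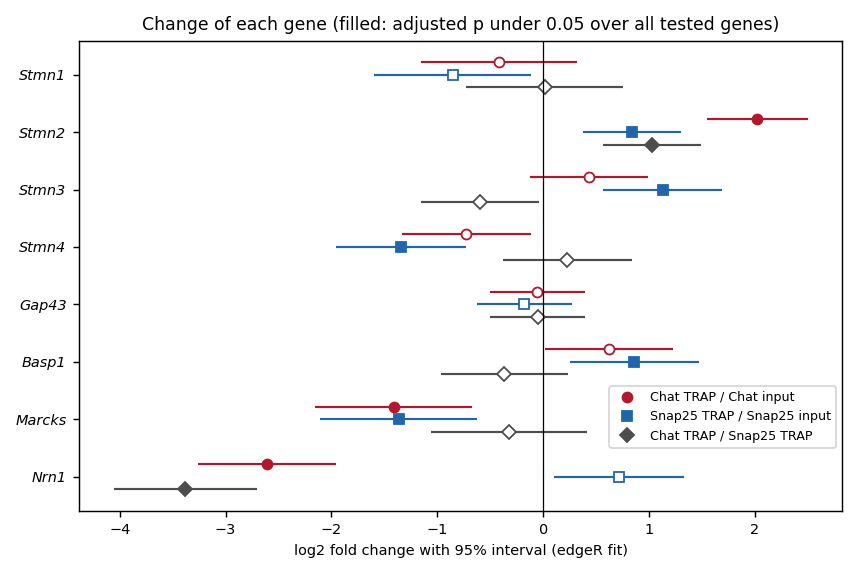
Log2 fold change of each gene with its 95% interval from the edgeR fit (horizontal axis) for 3 comparisons: Chat pulldown over its input (circles), Snap25 pulldown over its input (squares) and Chat pulldown over Snap25 pulldown (diamonds). Filled symbols passed an adjusted p of 0.05 over all 15905 tested genes, except that the circle of Stmn2 is a description, since that value chose the gene. Nrn1 lies at -2.61 and 0.72 in the 2 strains, on opposite sides of 0, and the 3 intervals of Gap43 all span 0.

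Nrn1, a small protein anchored to the outer membrane by a glycolipid and known to promote the growth of neurites and synapses, parted the 2 pulldowns most. Its level was 19.1, 8.61 and 20.4 CPM in the Chat pulldown against 103, 106 and 86.1 CPM in the Chat input. In the Snap25 pulldown it was 219, 118 and 167 CPM against 105, 98.6 and 103 CPM in the Snap25 input. The Chat pulldown lay below every other library and the Snap25 pulldown above every other library. Nrn1 fell in the Chat pulldown (log2 -2.61 ± 0.31 SE, edgeR adjusted p = 3.85e-05), and 10.4-fold lower levels were found in the Chat pulldown than in the Snap25 pulldown (-3.38 ± 0.32, edgeR adjusted p = 4.06e-05). The Snap25 pulldown gave 0.72 ± 0.29 over its input (edgeR adjusted p = 0.0877). That value passed the threshold with total counts alone (1.10, adjusted p = 0.0162), a scaling that moved the median of all genes to 0.38, and without Snap25 pulldown replicate 2 (0.94, adjusted p = 0.0431).

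The change of Nrn1 from input to pulldown differed between the strains by -3.33 ± 0.42 on the log2 scale (edgeR adjusted p = 0.00389). The count of Stmn2 over that of Nrn1, within a library, was 83.9, 193 and 105 in the Chat pulldown and 3.57, 7.92 and 5.57 in the Snap25 pulldown against 3.80 to 5.46 in the inputs. With Stmn2 selected on its rise in the Chat pulldown, that ratio is a description only. The genes that followed Nrn1 most closely over the 12 libraries were Slc6a5, the glycine transporter of inhibitory neurons (Pearson r = 0.99), Hapln1, a link protein of the extracellular matrix (r = 0.99), and Tmem191c (r = 0.97), again as a description with no test. Slc6a5 had mean levels of 99.9 CPM in the Chat pulldown, 493 in its input, 654 in the Snap25 pulldown and 426 in its input. The pattern was not particular to inhibitory neurons. The summed level of 6 glutamatergic neuron markers was 55.7% to 59.5% of input in the Chat pulldown and 157% to 242% in the Snap25 pulldown. Median log2 values in the Chat and Snap25 strains were -1.486 and 0.594 for these markers and -2.086 and 0.247 for 7 inhibitory markers. The part of RNA from inhibitory or glutamatergic neurons in the values of Nrn1 was not tested.

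Stmn2 aside, the Chat pulldown had 0 genes called higher and 2 called lower (Marcks and Nrn1), and edgeR called 26.9% of all tested genes there, 12.6% higher and 14.3% lower. The choice of genes drew on that comparison, so nothing is read from its count. In the Snap25 pulldown 3 were called higher (Stmn2, Stmn3 and Basp1) and 2 lower (Stmn4 and Marcks), beside 22.4% of all genes, 9.69% higher and 12.7% lower. Between the pulldowns 1 was higher in the Chat strain (Stmn2) and 1 lower (Nrn1), beside 6.75% of all genes, 3.97% higher and 2.77% lower. That comparison reuses the Chat pulldown libraries on which Stmn2 was selected, so nothing is read from its count either. For the difference between the strains in the change from input to pulldown 1 gene was called, Nrn1, lower in the Chat strain, beside 1.04% of all genes, 0.604% higher and 0.44% lower. The median log2 value of the 8 genes was -0.24 in the Chat strain, 0.27 in the Snap25 strain and -0.19 between the pulldowns, and that of all genes -0.06, -0.00 and 0.01.

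Libraries of the 2 groups compared did not overlap for 5 of the 8 genes in the Chat strain (2 higher, 3 lower), beside 47.9% of all genes, 21.8% higher and 26.1% lower. Stmn2, selected on that change, is among the higher genes, so nothing is read from that count. In the Snap25 strain 7 did not overlap (4 higher, 3 lower), Gap43 being the exception, beside 38% of all genes, 16.6% higher and 21.4% lower. Between the pulldowns 3 did not overlap (1 higher, 2 lower), beside 19.8% of all genes, 10.3% higher and 9.47% lower. The higher gene is again Stmn2, in the libraries on which it was selected, so nothing is read from that count either.

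**Figure D4:**
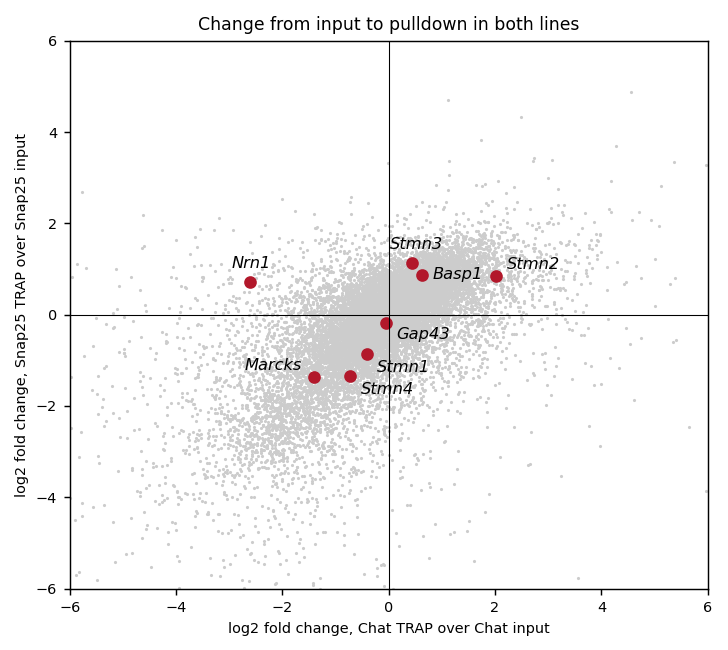
Log2 fold change from input to pulldown of all tested genes (grey points) and the 8 named genes (red), in the Chat strain (horizontal axis) and the Snap25 strain (vertical axis), with 145 genes outside the axes. Nrn1 is the 1 named gene with values of opposite sign in the 2 strains, at -2.61 and 0.72.

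Genes that work with or beside these 8 were followed as 8 further lists, and each count is set beside the share of all tested genes called the same way. Of 20 tested kinases and phosphatases that act on stathmins and on Gap43, Basp1 or Marcks, 4 rose and 4 fell in the Chat pulldown, beside 12.6% and 14.3% of all genes, with a median log2 value of 0.06 against -0.06 for all genes. Prkaca, a catalytic subunit of protein kinase A, rose 2.17-fold there (log2 1.12, edgeR adjusted p = 0.00554) and Cdk5, a neuronal kinase, 2.02-fold (1.01, adjusted p = 0.0051). The calcium- and calmodulin-dependent kinases Camk2a and Camk4 fell 3.33-fold and 2.62-fold. Of the same 20, 7 rose and 0 fell in the Snap25 pulldown, beside 9.69% and 12.7%, with a median of 0.35 against -0.00. Among these Prkaca rose by 1.34 and the calcineurin subunit gene Ppp3cb by 0.92 on the log2 scale. Between the pulldowns 1 was higher in the Chat strain, the protein kinase C gene Prkcd (1.73, edgeR adjusted p = 0.0143), and 3 were lower, among them Camk4 (-1.65) and Camk2a (-1.47), beside 3.97% and 2.77% of all genes.

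Gap43, Basp1 and Marcks bind calmodulin and phosphoinositides, and of 10 genes for calmodulin and phosphoinositide kinases 3 rose and 0 fell in the Chat pulldown, beside 12.6% and 14.3% of all genes. Of these, 2 rose and 0 fell in the Snap25 pulldown, beside 9.69% and 12.7%, and the list's medians were 0.28 and 0.35 in the Chat and Snap25 strains. Calm2, a calmodulin gene, rose 3.27-fold and 2.29-fold (edgeR adjusted p = 0.000326 and 0.00455), and Pip5k1b, a phosphatidylinositol phosphate kinase gene, 2.17-fold and 2.04-fold. Among 13 palmitoylation and depalmitoylation genes, which set the membrane hold of Gap43 and the neuronal stathmins, 1 rose and 1 fell in each pulldown, both below the shares of all genes just given, with medians of 0.34 and 0.24. Zdhhc2, a palmitoyltransferase, rose 2.65-fold in the Chat pulldown and was 2.53-fold higher there than in the Snap25 pulldown (edgeR adjusted p = 0.0129). Abhd17c, a depalmitoylating enzyme, fell in both, by 0.87 and 0.80 on the log2 scale.

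Of 9 collapsin response mediator and doublecortin genes, which also bind tubulin or microtubules in growing axons, 2 rose and 1 fell in the Chat pulldown, beside 12.6% and 14.3% of all genes, and 0 rose and 1 fell in the Snap25 pulldown, beside 9.69% and 12.7%. The list's median was -0.03 in both. Dclk1 stood at 666 ± 122 CPM (SD, n = 3) against 253.5 ± 2.31 in the input and Dpysl3 at 195 ± 30.6 against 90.1 ± 7.71, and both were also higher in the Chat than in the Snap25 pulldown (log2 0.995 and 0.94, edgeR adjusted p = 0.0119 and 0.0162). Dcx, a marker of immature neurons, fell in both pulldowns, by 1.79 and 2.15 on the log2 scale. Among 23 other microtubule genes 3 rose and 2 fell in the Chat pulldown, and 2 rose and 3 fell in the Snap25 pulldown, counts near those shares of all genes, with medians of 0.08 and -0.07. Tbca, a tubulin folding cofactor, rose 3.71-fold and 2.61-fold. Map1b, a microtubule protein of growing axons, rose 2.12-fold in the Chat pulldown (edgeR adjusted p = 0.0148) and was 2.42-fold higher there than in the Snap25 pulldown (adjusted p = 0.018). Map7 fell 4.34-fold and 8.31-fold, and Mapt, the tau gene, fell 2.13-fold in the Chat pulldown.

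Of 17 other growth cone membrane genes 2 rose and 7 fell in the Chat pulldown, beside 12.6% and 14.3% of all genes, with a median log2 value of -0.72 against -0.06 for all genes. Of the 17, 1 rose and 5 fell in the Snap25 pulldown, beside 9.69% and 12.7%, with a median of -0.06. Pcp4, a calmodulin regulator, rose 2.44-fold and 3.08-fold, and Gpm6b, a proteolipid also made by glia, fell 4.28-fold and 6.30-fold. Nrgn, a calmodulin-binding relative of Gap43, fell 4.84-fold in the Chat pulldown, to 3.19 ± 1.53 CPM, and Gpm6a was 2.95-fold lower in the Chat than in the Snap25 pulldown. Among 22 regeneration-associated genes 3 rose and 2 fell in the Chat pulldown, near the shares of all genes, and 1 rose and 6 fell in the Snap25 pulldown, beside 9.69% and 12.7%, with medians of 0.28 and -0.17. Of the 22, 5 were higher and 0 lower in the Chat than in the Snap25 pulldown, beside 3.97% and 2.77% of all genes, with a median of 0.63 against 0.01. Hspb1, a small heat shock protein of motor and sensory neurons, stood at 91.6 ± 4.92 CPM in the Chat pulldown and 16.9 ± 6.15 in the Snap25 pulldown (log2 2.45, edgeR adjusted p = 1e-04). Klf7, a transcription factor of axon growth, stood at 67.6 ± 3.02 and 14.7 ± 3.95 CPM (2.20, adjusted p = 3e-04). Gfra1, a receptor of glial cell line-derived neurotrophic factor, rose 2.51-fold in the Chat pulldown, while Fabp7, a glial fatty acid-binding protein, fell in both.

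RNA-binding proteins of the kind known to bind Gap43 and other messages here gave 1 of 9 higher and 4 lower in the Chat pulldown, beside 12.6% and 14.3% of all genes, with a median of -0.24. Of the 9, 1 was higher and 1 lower in the Snap25 pulldown, beside 9.69% and 12.7%, with a median of -0.06. Elavl2 rose 2.26-fold, and Elavl3 and Celf1 fell 3.16-fold and 2.04-fold. Elavl3 also fell in the Snap25 pulldown, 3.80-fold, where Ptbp2 rose 1.91-fold, and Elavl1 was 1.79-fold lower in the Chat than in the Snap25 pulldown (edgeR adjusted p = 0.0473).

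For the members not yet described in this way, the genes most alike over the 12 libraries were listed by the same measure. Stmn2 was followed most closely by Calca, a neuropeptide gene of motor and sensory neurons (Pearson r = 0.98), and Arhgap36 (r = 0.98). Calca stood at a mean of 279.6 CPM in the Chat pulldown and 67.2 in the Snap25 pulldown against 20.5 and 24.4 in the inputs. Stmn3 was followed by Chchd10, a mitochondrial protein gene, Pcsk1n, an inhibitor of prohormone convertase, and Mfsd5 (r = 0.97, 0.97 and 0.96), whose means were all highest in the Snap25 pulldown. Basp1 was followed by Sh3yl1, Prkra and the homeobox gene Hoxc10 (r = 0.93, 0.92 and 0.92), and Marcks by Lrrc16a, Diap2 and Pak2 (r = 0.97, 0.97 and 0.96). Gap43 had the loosest followers, Zfp839, Msl1 and Pdgfa (r = 0.89, 0.88 and 0.88).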

How the data were processed

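The authors deposited a table of raw counts per gene for 12 libraries, with 3 per group. Per the submitters' processing notes, STAR and HTSeq were used. For neither tool is a version, build, annotation or strand option stated in the labels. Libraries were amplified with a Nugen Ovation kit and sequenced on an Illumina instrument, per the labels' protocols. Of 41736 lines, 824 repeated a gene ID and were dropped. Columns were mapped to samples by description.

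All 12 libraries entered a single edgeR 4.0.16 fit in R 4.3.3 (filterByExpr, TMM scaling, glmQLFit and glmQLFTest, 1 mean per group), with Benjamini-Hochberg adjustment over 15905 genes and a threshold of 0.05. CPM are TMM-scaled, errors are SE of the fit or SD of 3 libraries, and intervals cover 95%. The script was tested on simulated counts. GENCODE M21 gave lengths, overlaps and copies. Upstream sequence came from RefSeq and was found for 2 of the 8 genes. Alternatives used limma 3.58.1 and DESeq2 1.42.0.

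The 8 genes and all lists were chosen with earlier results of these data known. Named genes were the 8 themselves, up to 2 per list and direction with the largest change among those called with a mean of at least 5 CPM, and for each of the 8 the 3 genes, predicted genes left out, with the highest Pearson correlation of log2 CPM (prior count 2). A gene that this rule names for Stmn2 is not reported here.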

Additional observations from a re-analysis of the deposited data

Results flagged for a closer look

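Among the 8 genes and those named from the 8 lists, 3 gave a change from input to pulldown that differed between the strains by the test of that difference itself, the interaction term of the edgeR fit over all genes. That test called 1.04% of all tested genes. List genes were named from those called, in this comparison too, so the calls of Hspb1 and Klf7 follow from the naming rule. Of the lists, 2 of 22 regeneration-associated genes were called higher, and 1 of 23 other microtubule genes, which the rule did not name. Nrn1 differed by -3.33 on the log2 scale (adjusted p = 0.00389), lower in 3 of 3 Chat pulldown libraries than in any Chat input and higher in 3 of 3 Snap25 pulldown libraries than in any Snap25 input. Hspb1 differed by 2.48 (edgeR adjusted p = 0.00689), having risen by 3.73 in the Chat pulldown and by 1.25 in the Snap25 pulldown. Klf7 differed by 2.34 (edgeR adjusted p = 0.00981), having fallen in the Snap25 pulldown. Chat, which checks the strains, differed by 2.21 (edgeR adjusted p = 0.013), with 3 of 3 Chat pulldown libraries above every other library. The genes that followed a member over the libraries were not looked at in this way.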

How the results depend on the processing

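The calls of Nrn1 in the Chat pulldown, between the pulldowns and for the difference between strains, of Marcks in the Chat pulldown, and of Stmn3 and Stmn4 in the Snap25 pulldown held under all alternatives run: other scalings and filters, only the groups compared, a replicate block, leaving out each library, DESeq2 and limma voom. The fit of only the groups compared does not apply to the difference between strains, which uses all 4. Counted with Stmn2, 1 to 2 of 8 genes were higher in the Chat pulldown on leaving out a library (2 without its replicate 2). Genes lower there numbered 2, or 3 with Stmn4, which passed in 5 of 15 alternatives: no low-count filter (adjusted p = 0.0367), only the groups compared (0.0388), limma voom (0.0433), a replicate block (0.0161) and without pulldown replicate 1 (0.031). On leaving out a library, 1 to 3 were higher in the Snap25 pulldown (1 without input replicate 1) and 1 to 3 lower (1 without input replicate 2). With total counts alone 4 were higher there, Nrn1 among them, and 1 was lower. Between the pulldowns 0 were higher with only those groups in the fit. For the difference between strains 1 was higher with DESeq2 and 1 with limma voom. The cause was not tested.

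Signs turned only for values past no threshold. With total counts alone Gap43 gave 0.20 in each strain and -0.0070 for the difference between strains, and Nrn1 0.021 between the inputs. With only the pulldowns in the fit Stmn1 gave -0.012 between them. On leaving out a library, Gap43 ran from -0.17 to 0.15 in the Chat pulldown. Between the pulldowns Stmn1 ran from -0.14 to 0.28, Stmn4 from -0.033 to 0.53, Gap43 from -0.17 to 0.14 and Marcks from -0.62 to 0.061. For the difference between strains Basp1 ran from -0.49 to 0.026 and Marcks from -0.35 to 0.35, and between the inputs Stmn3 from -0.11 to 0.25 and Nrn1 from -0.11 to 0.034. Of 32 group means, 25 moved by under 1 SD in CPM over total counts.

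Same-numbered input and pulldown libraries deviated together with r of 0.06, 0.10 and 0.13 in the Chat strain and -0.04, 0.17 and 0.15 in the Snap25 strain. In the labels an input and the pulldown of the same number share a description suffix whose meaning is not given, and Chat replicate 2 and Snap25 replicate 1 also share theirs, so the numbers were not taken to pair libraries. Each Chat pulldown followed its own-numbered input best, and Snap25 pulldown replicates 1 and 3 did not. The replicate block called 4431, 3663, 920 and 206 genes in the 4 comparisons with calls, against 4273, 3558, 1073 and 166, and among the 8 it added Stmn4 in the Chat pulldown (-0.75, adjusted p = 0.0161).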
